A study of Homo sapiens with 6 samples.

Results

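The CEP genes are a family by name, whose products were found at the centrosome and whose members are not all related in sequence. Members were taken as every gene whose symbol in the platform's probe annotation is CEP followed by a digit, with 1 probe set a gene, the brightest where there were several. This gave 37 of 14884 genes measured by name, of which 35 are protein-coding and 2, CEP170P1 and CEP192P1, are pseudogenes. CEP83-DT, a divergent non-coding transcript, was left out with the antisense symbols. Near-identical sequence means that CEP170 and CEP170P1, and CEP192 and CEP192P1, may share signal, so their values are uncertain to that extent.

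The centrosome is built around a pair of centrioles, which duplicate in step with the cell cycle, and the protein matrix around them, the pericentriolar material, nucleates microtubules. Many CEP proteins act in the building of a new centriole, others in the link between centrosomes or in the appendages of the older centriole, and others in the cilium that a centriole can carry as its basal body. CEP55 acts at the midbody at the end of cell division.

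The cells were MDA-MB-231, a human breast carcinoma line of the triple-negative type. Control cells and NR1D1 knockout cells, which lack the gene of the heme-binding circadian repressor REV-ERBα, were both exposed to 200 µM hydrogen peroxide for 72 h, and 3 arrays were made of each. The comparison asks which transcripts differ between the genotypes under oxidative stress, and no untreated cells were among the samples. The labels call the arrays biological replicates but name no separate cultures and no knockout clones, and the p-values therefore reflect only how far these arrays differ, part of which may be technical. Total RNA was measured on whole-transcript GeneChip arrays, and the deposited values are used as log2 probe set summaries. The 6 array medians over all probe sets lay between 5.18 and 5.22, and arrays correlated at 0.98 to 0.988. NR1D1 had no named probe set, so the knockout was not checked from its transcript here. Of the 3 mesenchymal-type markers measured, VIM stood at 9.01 ± 0.048 and 9.35 ± 0.08, AXL at 11.82 ± 0.073 and 12.03 ± 0.05 and CD44 at 9.86 ± 0.0187 and 9.51 ± 0.0973 in control and knockout arrays (log2, mean ± SD, n = 3 each). VIM passed the test as higher and CD44 as lower, and AXL did not pass. The estrogen receptor gene ESR1 measured 5.19 ± 0.074 and 5.19 ± 0.253, and without detection calls no gene could be called absent.

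The 6 CEP genes that passed the test are printed as the 250 bases before their start in the RefSeq annotation of GRCh38.p14, written 5′ to 3′ on the gene's strand, since members that moved together are compared by the motifs there. Where RefSeq gives several starts, as for CEP85 and CEP57, the outermost was used. Capitals mark 3 motifs on either strand: TTTGAA (or TTCAAA), the core of the cell cycle genes homology region, CCAAT (or ATTGG), the box bound by NF-Y, and AGGTCA (or TGACCT), the nuclear receptor half-site that is the core of the element bound by REV-ERBα.
CEP97 promoter, chr3:101724364-101724613, plus strand: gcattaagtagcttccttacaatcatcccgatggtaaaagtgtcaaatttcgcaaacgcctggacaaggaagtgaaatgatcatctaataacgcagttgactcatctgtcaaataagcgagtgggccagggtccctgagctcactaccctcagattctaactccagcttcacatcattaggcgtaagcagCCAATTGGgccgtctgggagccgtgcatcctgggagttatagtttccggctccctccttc
CEP85 promoter, chr1:26233950-26234199, plus strand: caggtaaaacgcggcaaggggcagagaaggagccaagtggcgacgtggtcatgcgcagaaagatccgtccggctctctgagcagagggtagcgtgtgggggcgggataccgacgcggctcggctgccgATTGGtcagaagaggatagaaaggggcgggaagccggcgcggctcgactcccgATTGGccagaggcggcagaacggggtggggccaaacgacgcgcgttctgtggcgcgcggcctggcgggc
CEP192 promoter, chr18:12991112-12991361, plus strand: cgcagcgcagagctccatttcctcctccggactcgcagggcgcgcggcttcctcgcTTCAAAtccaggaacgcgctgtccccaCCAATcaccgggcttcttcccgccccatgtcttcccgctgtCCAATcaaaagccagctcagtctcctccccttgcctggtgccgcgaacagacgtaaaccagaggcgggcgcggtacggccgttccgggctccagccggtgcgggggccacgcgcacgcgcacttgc
CEP152 promoter, chr15:48811070-48811319, minus strand: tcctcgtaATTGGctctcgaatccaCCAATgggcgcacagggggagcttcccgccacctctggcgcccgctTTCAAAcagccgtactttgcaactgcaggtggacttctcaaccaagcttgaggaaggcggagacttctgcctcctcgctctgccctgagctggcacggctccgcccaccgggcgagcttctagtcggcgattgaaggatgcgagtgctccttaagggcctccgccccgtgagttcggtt
CEP57 promoter, chr11:95789764-95790013, plus strand: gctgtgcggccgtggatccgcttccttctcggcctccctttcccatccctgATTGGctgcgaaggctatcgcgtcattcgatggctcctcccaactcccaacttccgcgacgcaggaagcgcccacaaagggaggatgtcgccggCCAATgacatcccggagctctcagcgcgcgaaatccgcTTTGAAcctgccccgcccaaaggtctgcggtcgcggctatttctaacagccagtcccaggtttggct
CEP290 promoter, chr12:88142089-88142338, minus strand: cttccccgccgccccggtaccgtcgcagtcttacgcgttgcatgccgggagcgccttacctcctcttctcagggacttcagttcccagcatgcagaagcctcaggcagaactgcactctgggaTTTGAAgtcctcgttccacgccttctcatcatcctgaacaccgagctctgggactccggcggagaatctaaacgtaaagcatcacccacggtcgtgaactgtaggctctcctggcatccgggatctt

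All 5 genes that rose had CCAAT in this window, each at 2 places, and CEP290, which fell, had none. Members that were not called were mixed. CEP131 (log2 change 0.093) and CEP89 (0.24) each held CCAAT at 3 places, and CEP350 (0.046) and CEP128 (0.35) had none. In the CEP97 window the 2 matches overlap as CCAATTGG, which reads as the box on both strands. TTTGAA was present in the windows of CEP192, CEP152, CEP57 and CEP290, so genes that moved in opposite directions held it, and it was not in those of CEP97 and CEP85. AGGTCA was in none of the 6. Of the 31 CEP genes with a RefSeq window, 17 (54.8%) held CCAAT, against 34.3% of the 10749 measured genes with one. TTTGAA was in 7 of the 31 (22.6%), against 10.5%. AGGTCA was in 0 of the 31, against 10.1% of all, which says only that these letters were not in these windows. Of 2 E2F-type motifs searched, TTTCCCGC (or GCGGGAAA) was in 1 of 31 windows (3.23%, against 1.97% of all) and TTTGGCGC (or GCGCCAAA) in 0 of 31 (against 0.716%). A match is a description of the letters and not a measured binding site.

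As a family, CEP transcripts stood higher in knockout than in control cells by a small margin. Of the 37 genes 5 rose and 1 fell with an adjusted p under 0.05 in limma's moderated test, corrected by the Benjamini-Hochberg procedure over all 14884 genes. The shares called were 13.5% higher, 2.7% lower and 16.2% in either direction. Of all genes, 4.74% were called in each direction and 9.49% in either. Most CEP genes are among the brighter genes, which were called more often. Without the dimmest 25% of genes, 9 of the 36 CEP genes left were called in either direction, against 15.9% of all genes left. Without the dimmest 50% it was 11 of the 32 left, against 25.4%. Among protein-coding genes alone the shares were 14.3% of CEP genes higher and 2.86% lower, against 5.63% and 5.5% of all protein-coding genes. The genes that rose were CEP97, CEP85, CEP192, CEP152 and CEP57, and the gene that fell was CEP290. The log2 change, knockout minus control, was above 0 for 30 of the 37 genes (81.1%, against 51% of all genes). Its median was 0.157, against 0.00386 over all genes, and it ran from -0.32 to 0.6. CEP97 was the only member that changed by 1.5-fold or more.

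**Figure D1:**
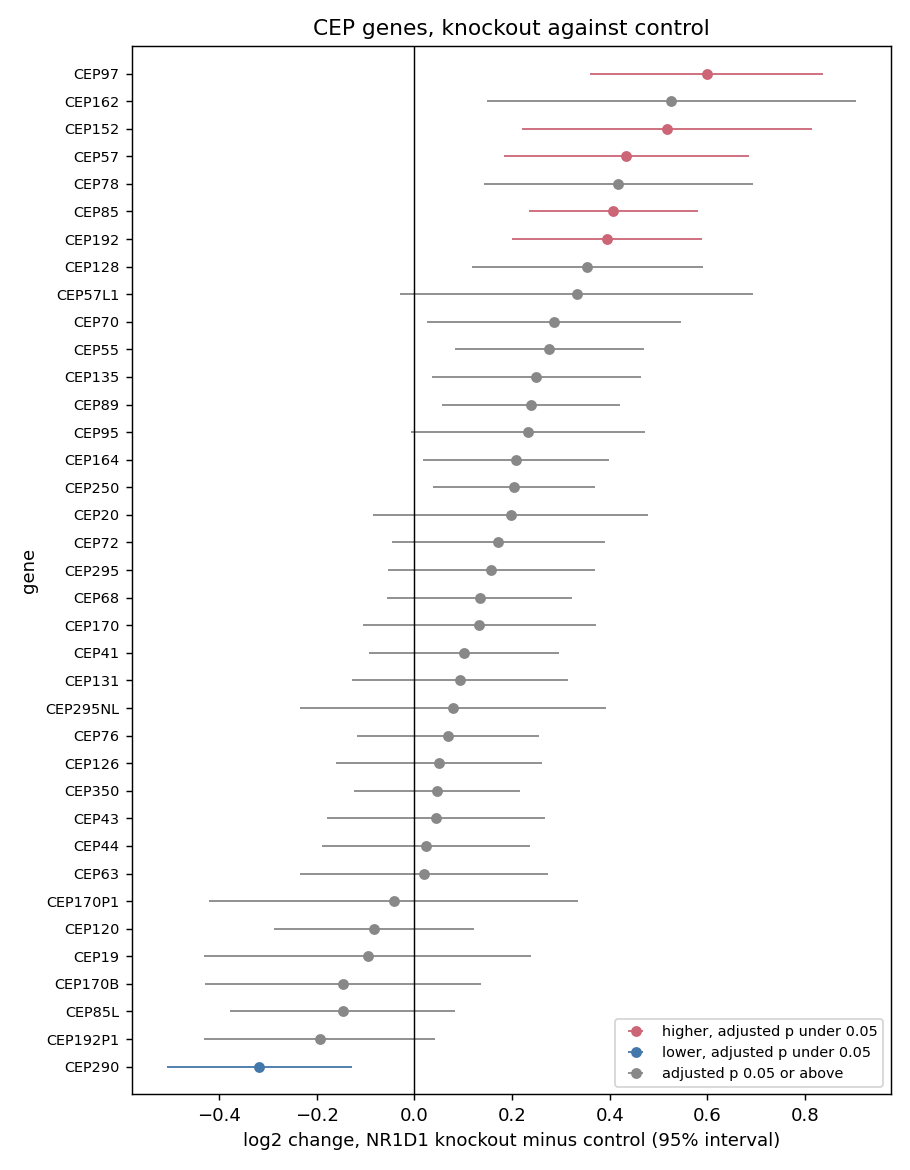
Log2 change of each of the 37 CEP genes (knockout minus control, x axis) with its 95% interval from limma, ordered by size, 3 arrays a group. The 5 genes called higher lie between 0.39 and 0.6, CEP290 at -0.32 is the gene called lower, and 30 genes lie to the right of 0.

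Set against the mean of the 6 arrays, the difference could be followed array by array. After subtraction of each gene's mean over the 6 arrays, the median CEP gene stood at -0.12, -0.056 and -0.054 on the control arrays and at 0.068, 0.105 and 0.062 on the knockout arrays. The median over all genes lay between -0.0088 and 0.0157 on the same arrays. All 3 control arrays were thus below all 3 knockout arrays in the CEP median. These deviations restate the group difference and are no separate test of it. For 17 of the 37 genes (45.9%) the groups did not overlap, against 28.7% of all genes and 32.3% of protein-coding ones. Knockout values were above control values in 16 of these and below in 1, CEP290.

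The calls rest on few arrays. Without control replicate 1 the test called 1 CEP gene higher, with control replicate 3 or knockout replicate 2 left out it called 2, and with any of the other 3 arrays left out it called 3. CEP290 was called lower in none of these 6 fits. Leaving out dim genes gave more calls. Without the dimmest 25% of genes, 8 of the 36 CEP genes left were called higher, and without the dimmest 50%, 10 of the 32 left. The test limma's treat, against a 1.2-fold change, called 0 (3 at an unadjusted p under 0.05). Over all genes, 1412 were called with all arrays and 723 to 1049 without single arrays. The filters called 1771 of 11163 genes (15.9%) and 1887 of 7442 (25.4%), so the share of all genes called rose with them too, and treat called 333 (2.24%).

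CEP97 had the largest change. With its partner CP110 its product caps the far end of the centriole and holds back the growth of a cilium. CEP97 measured 8.62, 8.66 and 8.69 on the control arrays and 9.46, 9.09 and 9.22 on the knockout arrays (log2). Every knockout value was above every control value, and the knockout arrays were more spread out (SD 0.184, against 0.0364, n = 3 each). The change was 0.6 ± 0.104 (SE) on the log2 scale, or 1.51-fold higher (adjusted p = 0.00992, limma). It stayed past the threshold without any 1 of the 6 arrays, with adjusted p of 0.0136 to 0.0427. The partner gene CCP110, which encodes CP110, measured 7.19, 7.61 and 7.33 in control and 7.79, 7.8 and 8.1 in knockout arrays. CCP110 rose 1.43-fold (adjusted p = 0.0459), but of the 6 fits that leave out an array it passed in 1, that without control replicate 2, and it missed with arrays centred on their medians.

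CEP85 was the most even of the changed genes. Its product binds STIL, an assembly factor of new centrioles, and also restrains the kinase NEK2 at the centrosome. CEP85 measured 7.16, 7.26 and 7.21 in control and 7.65, 7.6 and 7.61 in knockout arrays (log2). The groups were far apart relative to their SDs of 0.0463 and 0.0276 (n = 3 each). CEP85 rose by 0.41 ± 0.0751 (SE), or 1.33-fold (adjusted p = 0.0127, limma), and was not called when control replicate 1 (0.0554) or control replicate 3 (0.0558) was left out. Both partner genes named were also higher: STIL rose 1.44-fold, from 8.26, 8.19 and 8.07 to 8.77, 8.75 and 8.6 (adjusted p = 0.00886), and NEK2 rose 1.39-fold (adjusted p = 0.0234). STIL stayed past the threshold without any 1 array, and NEK2 did so only without control replicate 2.

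CEP192 and CEP152 encode the proteins that bring the kinase PLK4 to the mother centriole to start a new one. CEP192 also anchors pericentriolar material. CEP192 measured 8.02, 8.21 and 8.21 in control and 8.55, 8.57 and 8.5 in knockout arrays (log2). The lowest knockout value was above the highest control value, and the change was 0.39 ± 0.0851 (SE), or 1.31-fold higher (adjusted p = 0.0246, limma). It missed the threshold without any 1 array (adjusted p of 0.0525 to 0.0869).

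CEP152 measured 6.58, 6.8 and 6.9 in control and 7.45, 7.35 and 7.04 in knockout arrays. The groups did not overlap, though the closest pair lay near each other, and both were spread out (SD 0.164 and 0.213, n = 3 each). CEP152 rose by 0.52 ± 0.13 (SE), or 1.43-fold (adjusted p = 0.0429, limma). It passed without knockout replicate 3 (0.0234) and missed without each other array (0.0648 to 0.134). PLK4 itself measured 7.87, 8.11 and 7.9 in control and 7.75, 7.87 and 7.99 in knockout arrays, with overlapping groups and a change of -0.08 ± 0.1 (adjusted p = 0.685).

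CEP57 and CEP63 encode proteins that form a complex with CEP152 at the centriole, and CEP57 is mutated in mosaic variegated aneuploidy. CEP57 measured 7.97, 7.98 and 8.23 in control and 8.35, 8.5 and 8.63 in knockout arrays (log2). Its groups did not overlap, with control replicate 3 closest to the knockout arrays. CEP57 rose by 0.43 ± 0.109 (SE), or 1.35-fold (adjusted p = 0.0435, limma). It passed without control replicate 3 (0.0426) or knockout replicate 1 (0.0461), and missed when control replicate 1 (0.141), control replicate 2 (0.131), knockout replicate 2 (0.113) or knockout replicate 3 (0.12) was left out, and with another quantile normalization (0.054). CEP63 changed by 0.02 on the log2 scale, with a 95% interval of -0.23 to 0.27 (adjusted p = 0.944), so its estimate was near 0 while that of both partner genes was not.

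**Figure D2:**
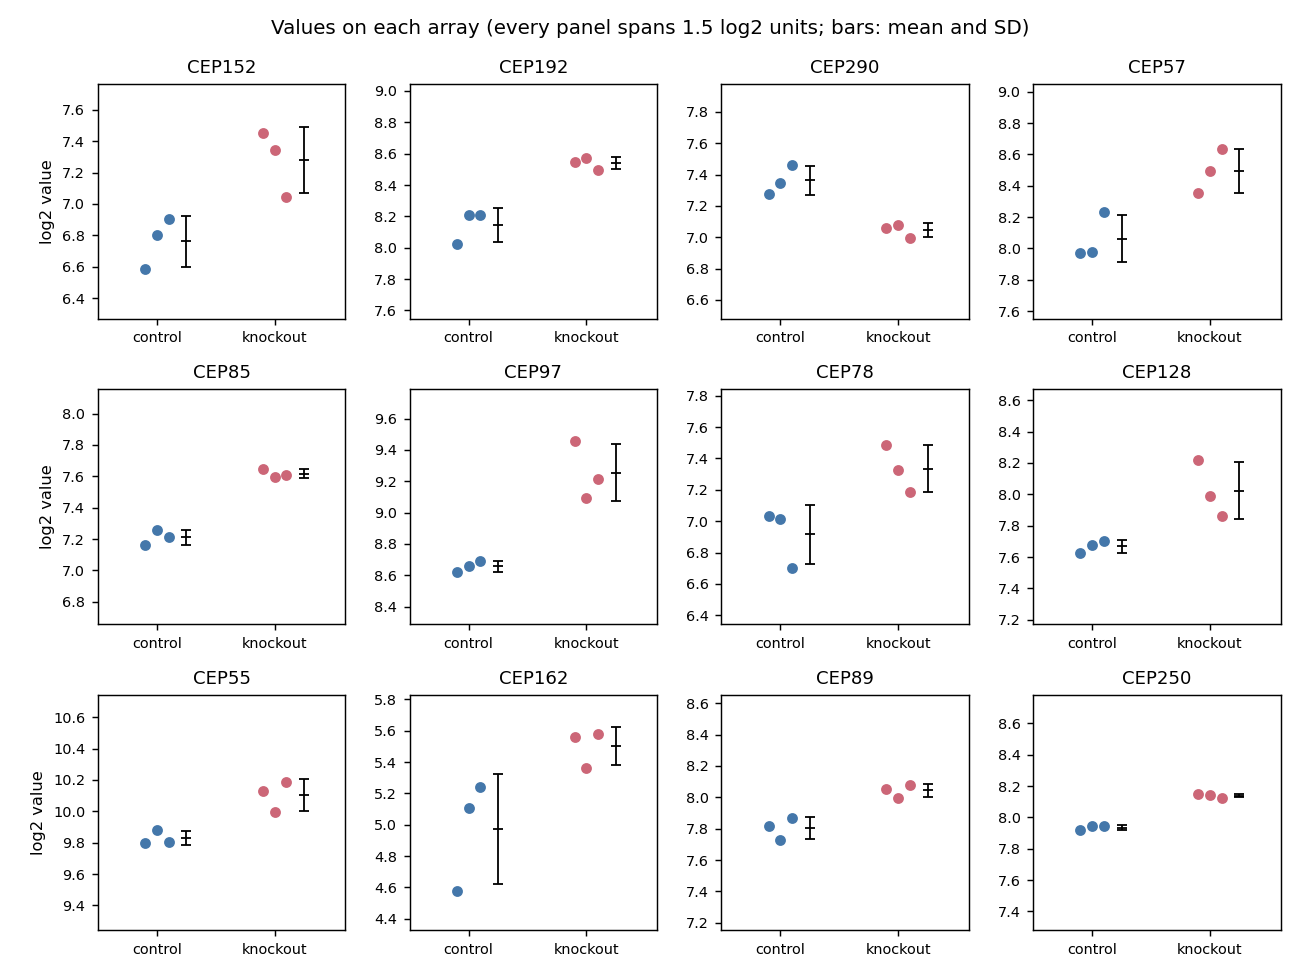
Log2 values on each array for the 6 CEP genes past the threshold and the 6 others with the smallest p, with control arrays in blue, knockout arrays in red, and the mean and SD beside them (n = 3). Groups do not overlap in any of the 12 panels, and CEP290 is the gene whose knockout arrays lie below.

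The other genes of centriole building mostly lay above 0 without passing. Of the 17 measured genes of procentriole assembly and centriole length, 5 rose (29.4%, against 4.74% of all genes) and none fell. A positive change was seen in 16 (94.1%, against 51% of all genes), with a median of 0.197. This role holds all 5 members called higher. Roles were assigned with earlier results of these data known, so these shares are descriptions. CEP78, whose product sits on mature centrioles and is mutated in a cone-rod dystrophy with hearing loss, measured 7.03, 7.02 and 6.7 in control and 7.49, 7.33 and 7.19 in knockout arrays. These groups did not overlap, and the change was 0.42 ± 0.12 (SE, adjusted p = 0.0698, limma). The centriole wall gene CEP135 differed by 0.25 (adjusted p = 0.152) and CEP295, of centriole maturation, by 0.16 (adjusted p = 0.37), both without overlap of the groups. CEP120, of centriole elongation, was the member of this role below 0, at -0.08 (adjusted p = 0.652). The remaining members had overlapping groups: CEP57L1 (0.33), CEP20 (0.2), CEP295NL (0.079), CEP76 (0.068), CEP350 (0.046), CEP43 (0.044) and CEP44 (0.024), all as log2 changes. For CEP350 the interval, -0.12 to 0.22, leaves out a change of the size seen in the 5 genes that rose.

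None of the 5 measured genes of the centrosome linker and pericentriolar material passed the limma test. All 5 had positive changes (median 0.172), where 51% of all genes lay above 0, and 2 had an unadjusted p under 0.05. At that unadjusted p 14 of the 37 CEP genes were higher and 1 lower, against 11.9% of all genes higher and 10.9% lower. CEP250, the linker protein that joins both centrosomes through rootletin, measured 7.92, 7.95 and 7.94 in control and 8.15, 8.14 and 8.13 in knockout arrays. Its values were the tightest of those described here, with SDs of 0.0163 and 0.0117 (n = 3 each). The groups did not overlap, yet the change of 0.2 ± 0.0724 (SE) had an adjusted p of 0.133, since limma draws a small observed spread towards the spread of all genes. CEP70, which binds γ-tubulin, differed by 0.29 (adjusted p = 0.177) and passed without control replicate 2 alone. CEP72 (0.17), the linker gene CEP68 (0.13) and the centriolar satellite gene CEP131 (0.093) had smaller log2 changes, with adjusted p of 0.339 to 0.638.

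Of the 5 measured genes of centriolar appendages none passed the limma test and 4 had positive changes (80%, against 51% of all genes). Their median was 0.208. At an unadjusted p under 0.05 were 3 of the 5, all higher, where 11.9% of all genes were higher. Appendages mark the older centriole: the distal set docks it to the membrane and the subdistal set anchors microtubules. The subdistal gene CEP128 measured 7.62, 7.68 and 7.7 in control and 8.22, 7.99 and 7.86 in knockout arrays. Its control arrays were close together and all lay below the knockout arrays (change 0.35 ± 0.104 SE, adjusted p = 0.0732). The distal gene CEP89 measured 7.82, 7.73 and 7.87 in control and 8.06, 8 and 8.08 in knockout arrays, also without overlap (0.24 ± 0.0795 SE, adjusted p = 0.109). CEP164, a distal appendage gene whose product recruits the kinase TTBK2, differed by 0.21 (adjusted p = 0.179). TTBK2 itself rose 1.29-fold (adjusted p = 0.028), and of the 6 fits that leave out an array it passed in 1, that without knockout replicate 3.

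The cilium genes went both ways. Of 5 measured, 1 fell (20%, against 4.74% of all genes), none rose and 3 lay above 0 (60%, against 51%). Their median was 0.0499, and 1 gene on each side had an unadjusted p under 0.05 (11.9% of all genes higher and 10.9% lower). CEP290, which builds the gate at the base of the cilium and is mutated in Joubert syndrome and Leber congenital amaurosis, measured 7.28, 7.35 and 7.46 in control and 7.06, 7.08 and 7 in knockout arrays (log2). All knockout values were below all control values. CEP290 fell by 0.32 on the log2 scale (SE 0.0829), or 1.25-fold (adjusted p = 0.0497, limma). The call was at the edge of the threshold: it was lost without any 1 array (adjusted p of 0.0799 to 0.178) and with arrays centred on their medians (0.0618). CEP162, which marks the ciliary axoneme for the same gate, had the second largest change among all members. CEP162 measured 4.58, 5.11 and 5.24 in control and 5.56, 5.36 and 5.58 in knockout arrays, with control replicate 1 far below the others. Its change was 0.53 ± 0.165 (SE, adjusted p = 0.0923) and was 0.33 without control replicate 1. CEP41, of tubulin glutamylation, differed by 0.1, CEP126 by 0.05 and CEP19 by -0.1, all with overlapping groups and adjusted p of 0.545 to 0.811.

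CEP55, which brings the membrane-cutting ESCRT machinery to the midbody, did not pass as a single gene. It measured 9.8, 9.88 and 9.8 in control and 10.13, 9.99 and 10.19 in knockout arrays (log2). All knockout values were above all control values, and the change was 0.28 ± 0.0845 (SE), or 1.21-fold (adjusted p = 0.0856, limma). Of 11 measured cytokinesis genes around it, 3 rose and 1 fell (27.3% and 9.09%, against 4.74% of all genes in each direction). KIF20A, a kinesin of the midzone, rose 1.72-fold (adjusted p = 0.000957), and PRC1, which bundles midzone microtubules, 1.3-fold (adjusted p = 0.0271). CHMP4C, an ESCRT-III subunit of the abscission checkpoint, fell from 7.1, 7.07 and 6.79 to 6.22, 6.32 and 6.03, which is 1.74-fold lower (adjusted p = 0.00443). KIF20A and CHMP4C passed without any 1 array, PRC1 passed in 1 of those 6 fits (without knockout replicate 1) and KIF23 (1.3-fold higher) in none.

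Members related in sequence are given side by side, and their differences were not tested. CEP57 changed by 0.43 (95% interval 0.18 to 0.68) and CEP57L1 by 0.33 (-0.03 to 0.69), so the intervals overlap over most of their length. CEP85 changed by 0.41 (0.24 to 0.58) and CEP85L by -0.15 (-0.38 to 0.083), with intervals that do not meet. CEP170 changed by 0.13 (-0.11 to 0.37) and CEP170B by -0.15 (-0.43 to 0.14). CEP295 changed by 0.16 (-0.06 to 0.37) and CEP295NL by 0.08 (-0.23 to 0.39). CEP95, of which little is known, had overlapping groups (0.23, adjusted p = 0.233). The pseudogenes CEP170P1 and CEP192P1 measured -0.04 and -0.19 (adjusted p = 0.919 and 0.316).

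The changed members lie on 6 different chromosomes, among neighbours with median changes near 0. Among the 20 nearest measured protein-coding genes of CEP97 on chromosome 3, 10 on each side in gene order, the median log2 change was 0.0665. It was 0.0327 around CEP85 on chromosome 1, 0.0248 around CEP192 on chromosome 18, -0.0882 around CEP152 on chromosome 15, 0.0521 around CEP57 on chromosome 11 and 0.0237 around CEP290 on chromosome 12. CEP152 rose while 14 of its 20 neighbours lay below 0, and CEP290 fell while 13 of its 20 lay above. CEP85L on chromosome 6, at -0.15, had 16 of 20 neighbours below 0, with a median of -0.174.

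Other centrosome genes and the cytokinesis genes around CEP55, all without the CEP name, were taken in lists by role. The lists were chosen with earlier results of these data known, so their counts are descriptions. Over all lists, the 11 cytokinesis genes included, 81 of 115 listed symbols were measured. SPAG5, listed under both pericentriolar material and satellites, was counted once here. Of the 81, 20 rose and 4 fell (24.7% and 4.94%, against 4.74% of all genes in each direction), and their median log2 change was 0.153. Cytokinesis genes made up 3 of these rises and 1 of the falls. Leaving out control replicate 1, 2 or 3 gave 8, 11 or 9 rises in that order, and leaving out knockout replicate 1, 2 or 3 gave 12, 9 or 13. The falls were 2 without control replicate 3 and 3 without any 1 of the others.

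Of 19 centriole duplication genes 8 rose (42.1%, against 4.74% of all genes) and none fell, with a median of 0.308. The rises were 4 without any 1 control array or without knockout replicate 2, and 5 without knockout replicate 1 or 3. The largest changes were CCDC77 (1.45-fold), STIL and CCP110. CPAP, which sets centriole length, rose from 6.56, 6.5 and 6.59 to 6.89, 6.86 and 6.83 (1.24-fold, adjusted p = 0.0366), but missed without any 1 array. Of 9 genes of pericentriolar material 3 rose and 1 fell (33.3% and 11.1%, against 4.74% of all genes in each direction). CDK5RAP2, a γ-tubulin anchor mutated in microcephaly, rose from 8.14, 8.1 and 8.12 to 8.73, 8.82 and 8.68 (1.54-fold, adjusted p = 0.00204), which held without any 1 array. The mitotic kinase gene PLK1 rose 1.44-fold (adjusted p = 0.00913), also without any 1 array. PDE4DIP, a relative of CDK5RAP2, was 3.5-fold lower (adjusted p = 5.23e-05), but it has near-identical copies in the genome, so this value is uncertain.

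By the sign of the change, appendage and gate genes were more divided than satellite genes. Of 12 appendage genes 2 rose and 2 fell (16.7% each, against 4.74% of all genes in each direction), with a median of 0.0117. ODF2, of both appendage sets, rose from 7.98, 7.87 and 7.93 to 8.49, 8.44 and 8.47 (1.45-fold, adjusted p = 0.00391), while ninein, NIN, of the subdistal set, fell from 9.26, 9.24 and 9.26 to 8.8, 8.88 and 8.83 (1.34-fold lower, adjusted p = 0.0108). ODF2 passed without any 1 array and NIN without each array but control replicate 3. The relative NINL was 1.27-fold lower (adjusted p = 0.0478) and missed without any 1 array and with arrays centred on their medians. Of 10 satellite genes 2 rose, SPAG5 (1.44-fold) and CCDC112 (1.36-fold), and none fell (20% and 0%, against 4.74% of all genes in each direction). None of the 10 rose without control replicate 1. SPAG5 was also among the genes of pericentriolar material that rose. Of the 10, 8 had positive changes, with a median of 0.168. Knockout values were all above control values in 4 satellite genes and all below in 2. These 2 were LRRC49 (-0.354, adjusted p = 0.0518, limma) and CCDC18 (-0.244, adjusted p = 0.144). Genes listed for the ciliary transition zone, where CEP290 acts, and the cilium next to it numbered 17, with a median of -0.0123. Of these 2 rose (11.8%, against 4.74% of all genes) and none fell. They were TMEM107 (1.33-fold) and ANKS6 (1.28-fold), and neither passed when control replicate 1, control replicate 3 or knockout replicate 2 was left out. Of 4 linker genes NEK2 was the one that rose (25%, against 4.74% of all genes).

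**Figure D3:**
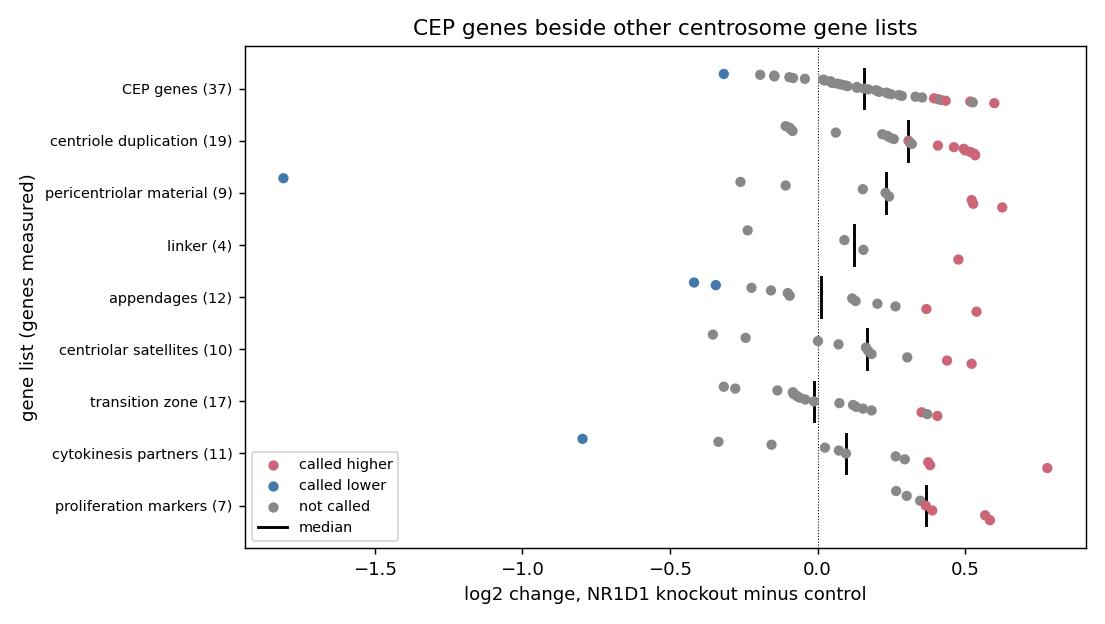
Log2 change (knockout minus control, x axis) of every measured gene in each list (rows, with the number measured), coloured by call at an adjusted p of 0.05, with the median as a bar. The medians run from -0.0123 for the transition zone to 0.366 for the proliferation markers, with CEP genes at 0.157.

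Markers of proliferation moved in the same direction as the CEP genes. All 7 measured markers had positive changes, with a median of 0.366. Of these 4 rose (57.1%, against 4.74% of all genes): CCNB2 (1.5-fold), CDC20 (1.48-fold), MKI67 (1.31-fold) and TOP2A (1.29-fold). The mean log2 value of the 7 lay between 9.08 and 9.22 on control arrays and between 9.43 and 9.61 on knockout arrays, without overlap. CDC20 was the marker that passed without any 1 array, and the number that passed was 1 without control replicate 1 or 3, 2 without control replicate 2 or knockout replicate 2, 3 without knockout replicate 3 and 5, PCNA added, without knockout replicate 1. The part of proliferation in the changes of CEP genes was not tested. A larger share of dividing cells and more of these transcripts per cell cannot be told apart in bulk RNA. Of the epithelial markers EPCAM (1.32-fold) and KRT18 (1.28-fold) rose and KRT8 differed by 0.29 (adjusted p = 0.139), and the mean of the 3 lay between 7.62 and 7.76 in control and between 8 and 8.06 in knockout arrays. Of the 6 fits that leave out an array, EPCAM and VIM passed in 1, that without knockout replicate 1, and KRT18 in none. KRT18 has 2 probe sets, of which the brighter was used, so its rise is uncertain. KRT18 also missed with another quantile normalization, with averaged probe sets and with the replicate block, and VIM and CD44 missed with the block. The part of this shift was not tested either. The fibroblast genes DCN and LUM differed by 0.02 and 0.12 (adjusted p of 0.922 and 0.752), and CD14, the leukocyte marker measured, by -0.29 (adjusted p = 0.085).

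**Figure D4:**
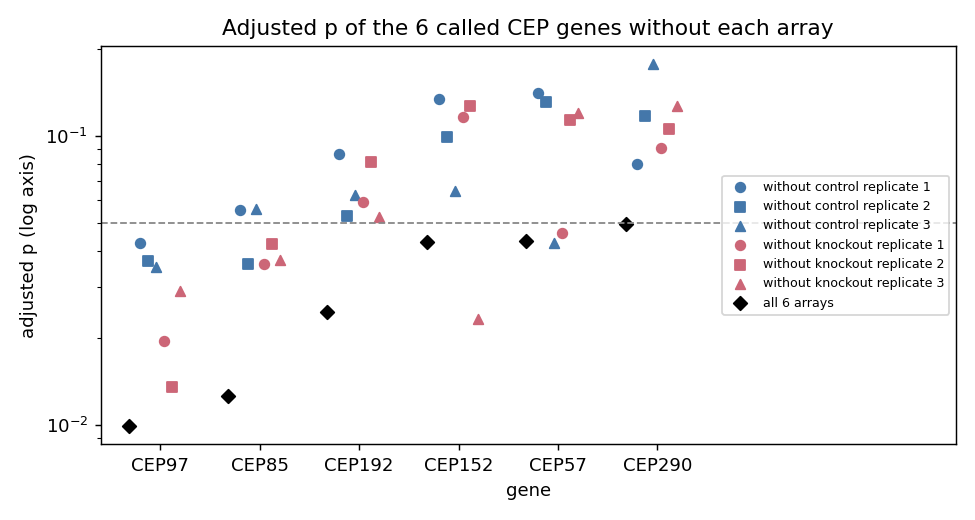
Adjusted p (log axis) of the 6 called CEP genes with all 6 arrays (black) and without each array in turn (blue for a control array, red for a knockout array), with the threshold of 0.05 dashed. All 6 points without an array lie under the line for CEP97, 4 of 6 do for CEP85, and none do for CEP192 and CEP290.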

How the data were processed

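RNA of 3 control and 3 NR1D1 knockout samples was copied to cDNA, biotin-labelled and hybridised to GeneChip whole-transcript arrays, as the labels' protocols state. The deposited table holds 1 log2 value per probe set and array, from 1.16 to 13.75, read as log2 from that range. The array medians were near-equal (5.18 to 5.22), and the method of any normalization is not given in the sources used here. Of 53617 probe sets 16098 had 1 gene symbol in the platform's annotation, and the other 37519 had none there. All 16098 matched RefSeq (GRCh38.p14) by gene identifier, with 0 symbols updated, which gave 14884 genes, none filtered out.

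The test was limma's (version 3.58.1, with lmFit and eBayes, two-sided, under R 4.3.3), adjusted by Benjamini-Hochberg over all genes, at a threshold of 0.05. Fold changes are powers of the log2 difference. The fit was tested on simulated data. Members, roles and lists were chosen with earlier results of these data known, so counts in them are descriptions. Values are given for called members, for 6 others with the smallest p, and for up to 3 called genes of each other list. TTBK2, NINL, KIF23, PLK4, CPAP and the markers are named beside them because a sentence on a partner or a list turns on them. Precision is limited by the number of arrays: the standard error of a member's log2 change was 0.0724 to 0.165. Replicate numbers did not pair the arrays (correlations of deviations 0.0547, 0.0681 and -0.106). Motifs were searched as exact letters on both strands of RefSeq promoter sequences. Alternatives were another quantile normalization, median centring, 2 filters on dim genes, averaged probe sets, another prior, array weights, a replicate block, each array left out, limma's treat and a fold rule. Plots were made in Python 3.11.15 with matplotlib 3.10.9.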

Additional observations from a re-analysis of the deposited data

How the results depend on the processing

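The count of 5 CEP genes higher was within 1.5 times of itself with another quantile normalization, median centring, averaged probe sets, array weights and the replicate block. It was 8 (of 36 tested) without the dimmest 25% of genes and 10 (of 32) without the dimmest 50%. With a trended, robust prior it was 8. CEP78, CEP128 and CEP55 joined the calls in all 3 settings. It was 1 to 3 when single arrays were left out, and 1 by a 1.5-fold rule with an unadjusted p. By treat against 1.2-fold 0 were higher and 0 lower, with 3 and 0 at an unadjusted p under 0.05. The count of 1 CEP gene lower was 0 with median centring, the replicate block, the fold rule or any array left out (range 0 to 0), while 1 to 3 were lower at an unadjusted p under 0.05 in those fits. The block gave 4 higher, of which 3 were shared with the fit without it and CEP78 was added, and 1050 genes in all. The numbers are no pairing in the labels. The median log2 change of CEP genes was 0.141 to 0.167 under the settings that keep all arrays and 0.12 to 0.201 without single arrays. All genes called were 1771 of 11163 (15.9%) and 1887 of 7442 (25.4%) under the 2 filters, 1953 (13.1%) with the trended, robust prior, 723 to 1049 without single arrays, 333 by treat and 558 by the fold rule, against 1412 (9.49%). For the 12 named members, no setting reversed a direction. Dim probe sets limit CEP192P1, CEP162, CEP126, CEP85L and CEP57L1, which the filters left out.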

Other observations

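The 3 probe sets of CEP192P1 changed by -0.061, -0.194 and 0.223 on the log2 scale, so they differ in sign, and the pseudogene has no settled direction. CEP83-DT, which was left out of the family, had log2 means of 5.01 ± 0.17 (SD) on the control and 5.13 ± 0.0656 on the knockout arrays (3 a group), with overlapping groups and a limma adjusted p of 0.55. CD44, a surface marker of the line, was 1.28-fold lower (adjusted p = 0.0324), while VIM was 1.27-fold higher (adjusted p = 0.0337). CD44 missed the threshold without any 1 array, and VIM missed it in 5 of those 6 fits.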
